A study of Mus musculus with 12 samples.

Results

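Tagged Ago2 was precipitated from the excitatory neurons of mouse forebrain, and the 766 small RNA:target peaks it gave were placed within a much deeper map of all Ago2 in the forebrain, which holds 246180 peaks. An excitatory peak counted as found again when a forebrain peak of the same small RNA lay on the same strand and shared at least 1 base with it. By that rule 713 of the 766 (93.1%) had a forebrain match and 53 had none. Both lists together with a list from 3 further forebrain libraries and an immunoglobulin G (IgG) control list make up the 250567 peaks of the study.

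The method, CIMERA-seq, cross-links Ago2 to RNA with ultraviolet light, precipitates it, and ligates each small RNA to the target it sits on, so that a read holds both. The excitatory list came from 3 libraries precipitated with anti-myc from mice in which Camk2a-CreERT2 switched on a tagged Ago2 (tAgo2, the CAG-GFP/Eif2c2 allele at ROSA26). The Camk2a promoter limits the tag to forebrain neurons in which it is active, and only cells that recombined after tamoxifen carry the tag. The forebrain list came from 4 libraries of whole forebrain precipitated with anti-Ago2, the added forebrain list from 3 (replicates 5 to 7), and the IgG list from 2. The labels describe the mice of all groups as C57BL/6, matched for sex and age, given 2 mg tamoxifen daily for 5 days and killed 14 to 21 days later at 10 to 12 weeks of age. This text is the same for every library, and it does not say if mice of the other precipitations had tagged Ago2 too. Antibody, tagged protein and cell type all differ between the excitatory and the forebrain list, and their libraries were prepared as separate samples, so these cannot be told apart.

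A microRNA guides Ago2 to its targets mainly through its seed, bases 2 to 8, and microRNAs that share a seed can pair with the same sites. miR-124 and miR-9 are among the best known microRNAs of neurons, let-7 is a large family found in most tissues, and miR-128, miR-138 and the miR-29 family are well known in mature brain. Ago2 sites lie in 3' untranslated regions (3' UTRs), where repression is best understood, and also in coding sequence (CDS).

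The mature microRNAs on which the results turn are shown with the seed in capitals, so that members of a family can be compared (RefSeq, GRCm38.p6, 5′ to 3′). Sequences were matched by name for 57 of the 64 small RNAs of the excitatory list, which between them had 41 seeds. The miR-29 members share a seed and differ in whether their strongest forebrain sites were found again.
miR-29a-3p: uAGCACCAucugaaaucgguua
miR-29b-3p: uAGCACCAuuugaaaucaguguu
miR-29c-3p: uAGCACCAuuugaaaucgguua
The let-7 members meet at the same sites.
let-7a-5p: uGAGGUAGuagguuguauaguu
let-7c-5p: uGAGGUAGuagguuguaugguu
let-7f-5p: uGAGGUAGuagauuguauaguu
let-7i-5p: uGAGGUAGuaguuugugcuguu
These next had the larger shares of strong forebrain sites found again.
miR-128-3p: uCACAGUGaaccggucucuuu
miR-138-5p: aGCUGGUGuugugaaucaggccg
miR-127-3p: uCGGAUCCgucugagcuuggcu
miR-7a-5p: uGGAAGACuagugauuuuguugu
miR-7b-5p: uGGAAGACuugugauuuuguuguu
And these had the smaller shares.
miR-9-5p: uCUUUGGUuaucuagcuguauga
miR-9-3p: aUAAAGCUagauaaccgaaagu
miR-26a-5p: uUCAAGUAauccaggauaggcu
miR-125b-5p: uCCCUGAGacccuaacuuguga
miR-30c-5p: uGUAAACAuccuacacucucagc
miR-30e-5p: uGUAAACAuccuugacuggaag

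Every peak carries a score, a whole number that the authors deposited without a definition. It was never below 3 in any list, and it orders peaks within a list. The excitatory scores summed to 7688 and the forebrain scores to 2185467, and 336 of the 766 excitatory peaks stood at the lowest score, 3. Each list is a single call over pooled libraries, so no spread between replicates can be given and no test between lists was made. Intervals below are 95% Wilson intervals of a share; they cover counting error only and take peaks as independent, which neighbouring peaks of 1 transcript are not. Beside a count of 0, the limit given with "allows up to" is 3 counts of the total, somewhat below the upper Wilson bound. Of the 10 IgG peaks, 9 (90%) also had a forebrain match of the same small RNA. Peaks on ribosomal RNA (rRNA) were counted apart. Of the 766 excitatory peaks, 89 lay on mitochondrial rRNA or at the rRNA gene locus of chromosome 17, and 77 of these had a match, against 636 of the 677 outside rRNA.

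Matched peaks lay close to base for base on each other. The centres of an excitatory peak and its forebrain match were a median of 2.5 bases apart, 566 of 713 (79.4%) were within 5 bases, and the 90th percentile was 7 bases. The excitatory peaks were wider, with a median of 20 bases against 14 for their matches. A single forebrain peak matched 695 of the excitatory peaks, 16 had 2 and 2 had 3. The annotated gene was the same for 712 of 713 pairs and the annotated region for 708. Conversely, 733 of the 246180 forebrain peaks (0.298%) had an excitatory match.

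Excitatory peaks matched the top of the forebrain list. When all forebrain peaks were ranked by score, with tied scores given their mean rank, the matches had a median rank of 2165.5, which is 0.880% of the way down the list (0.780 to 0.992, from order statistics). The middle 50% of matches lay between ranks 780 and 5529. Of the 713, 212 (29.7%, 26.5 to 33.2) were among the 1000 highest forebrain peaks, 385 (54.0%, 50.3 to 57.6) in the top 1% and 633 (88.8%) in the top 5%. The top 10% held 676 and the top 50% held 709. Peaks on rRNA ranked higher, with a median rank of 199, than those outside it, with a median of 2536 (1.03% of the list).

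**Figure D1:**
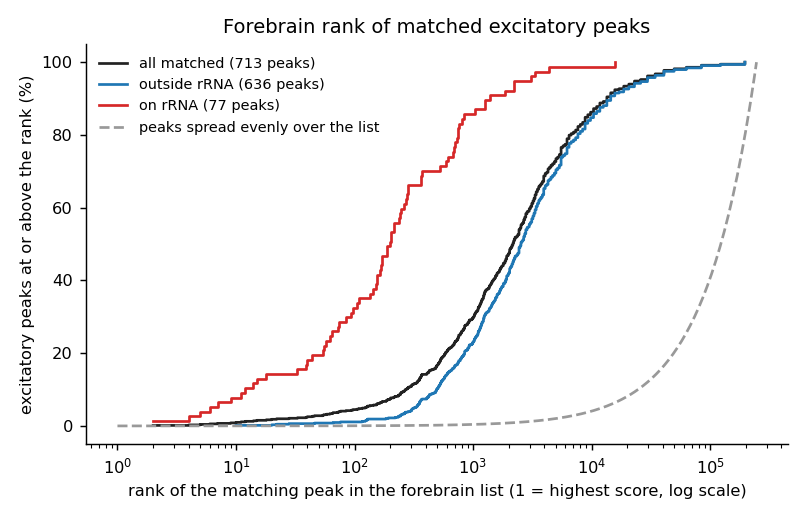
Share of matched excitatory peaks (vertical axis, %) whose forebrain match stands at or above a given rank (horizontal axis, log scale, 1 is the highest score), for all 713 matched peaks, the 636 outside rRNA and the 77 on rRNA; the dashed line is a list whose matches would be spread evenly over all ranks. The solid curves lie far to the left of the dashed line: 29.7% of all matches fall within the first 1000 ranks and 86.3% within the first 10000.

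Matches in CDS and in 3' UTRs had like ranks. Outside rRNA, the median rank was 1.03% of the list for 337 CDS matches and 1.05% for 211 in 3' UTRs. It was 2.25% for 23 in introns and 3.58% (0.589 to 8.37) for 15 in 5' UTRs. The 34 matches in intergenic sequence stood higher, at 0.330% (0.145 to 0.969). The small RNAs with at least 10 excitatory peaks were compared with rRNA peaks included. The median forebrain score of their matches was highest for miR-7a-5p (173, 11 matches), miR-26a-5p (124, 29) and miR-127-3p (115, 16). It was lowest for miR-29b-3p (47, 47 matches), miR-24-3p (48, 10) and let-7a-5p (51, 11), while the 270 matches of miR-124-3p had a median of 84.

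Peaks with a higher excitatory score matched higher forebrain scores. Outside rRNA, the 302 matches at an excitatory score of 3 had a median forebrain score of 42.5, the 133 at score 4 had 74, the 171 at scores 5 to 9 had 119 and the 30 at 10 or more had 340.5. Across the 636 matched peaks, Spearman's rho between both scores was 0.53 and Pearson's r of the log2 scores was 0.55. These describe peaks called from the same transcripts, with both lists cut off at a score of 3. The excitatory score was a median of 6.00% of the forebrain score.

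**Figure D2:**
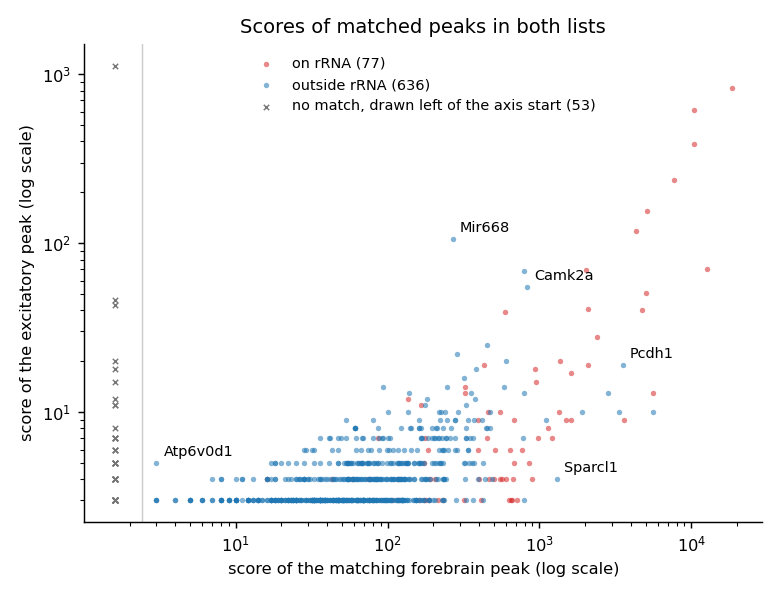
Score of each excitatory peak (vertical axis, log scale) against the score of its forebrain match (horizontal axis, log scale), with 636 peaks outside rRNA in blue and 77 on rRNA in red; 53 excitatory peaks with no match are drawn as crosses to the left of the grey line. Mir668 (106 against 269) stands above peaks of like forebrain score, Sparcl1 (4 against 1307) and Pcdh1 (19 against 3539) stand below them, and the highest cross is the let-7c-5p peak on mitochondrial rRNA at 1124.

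The strongest excitatory peaks outside rRNA lay in CDS or 3' UTRs, with 4 exceptions among the 10 highest: Mir668 and an unmatched site each in Panx3 and on chromosome 16, described further on, and an intergenic site on chromosome 16 that also had an IgG peak. At that site miR-125a-5p scored 68 against 791 (chr16:17222391-17222406, plus), miR-124-3p 10 against 1904 and miR-667-3p 5 against 343, and the IgG list had a miR-124-3p peak with a score of 5. A miR-124-3p peak in the CDS of Camk2a, the calcium/calmodulin-dependent kinase of excitatory synapses, scored 55 against 830 in the forebrain list, where it ranked 116. Another Camk2a CDS peak of miR-124-3p scored 18 against 384. In Ank2, which encodes an ankyrin that ties membrane proteins to the spectrin skeleton, a miR-128-3p peak of the CDS (chr3:127010964-127010981, minus strand, mm10) scored 25 against 451. In the 3' UTR of Phactr1, a regulator of actin and of protein phosphatase 1, a miR-124-3p peak (chr13:43138398-43138414, plus) scored 22 against 288. In the 3' UTR of Camk2n1, an inhibitor of the same kinase that Camk2a encodes, a miR-22-3p peak (chr4:138457156-138457173, plus) scored 20 against 602. The miR-124-3p peak in the 3' UTR of the protocadherin Pcdh1 scored 19 against 3539. For the peaks on Camk2a, Ank2, Phactr1, Camk2n1 and Pcdh1 the excitatory score was between 0.537% and 7.64% of the forebrain score.

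On mitochondrial rRNA the 5 highest excitatory peaks were all let-7 peaks on mt-Rnr1. let-7a-5p scored 833 against 18449 in the forebrain list (rank 2), let-7e-5p 611 against 10397, let-7b-5p 386 against 10381 and let-7d-5p 237 against 7692. The highest of all excitatory peaks, let-7c-5p at 1124 (chrM:644-646), had no match because the nearest forebrain let-7c-5p peak lay 6 bases away. The IgG list held let-7 peaks at the same place of mt-Rnr1, with scores of 3 to 21.

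Seen from the forebrain side, the share of peaks found again rose steeply with score. Outside rRNA, 4 of 98814 forebrain peaks at score 3 had an excitatory match, 0.291% of those at 10 to 19, 2.15% at 20 to 49, 10.6% at 50 to 99, 22.4% at 100 to 199 and 41.1% at 200 to 499. Of the 37 at 500 or more, 15 (40.5%, 26.3 to 56.5) had a match, and 25 had an excitatory peak of the same small RNA within 50 bases. Forebrain peaks grew narrower as scores rose, from a median width of 28 bases at score 3 to 6 bases at 500 or more, so a match by a shared base is harder to make at the top. Among the 1000 highest of all forebrain peaks, 226 (22.6%, 20.1 to 25.3) had a match, and 556 of these 1000 were on rRNA. Outside rRNA the count was 251 of the 1000 highest.

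Among strong forebrain peaks, those in CDS had a larger share matched by a shared base than those in 3' UTRs, introns or intergenic sequence. At a score of 50 or more, called strong here, 404 of 2502 forebrain peaks outside rRNA (16.1%) had an excitatory match, and in CDS and UTRs 357 of 1957 (18.2%). The share was 20.9% in CDS (219 of 1047; 18.6 to 23.5), 15.1% in 3' UTRs (132 of 877; 12.8 to 17.6), 6.62% in introns (9 of 136; 3.52 to 12.1) and 9.34% in intergenic sequence (27 of 289; 6.50 to 13.3). In 5' UTRs it was 18.2% (6 of 33, 8.61 to 34.4). The CDS share was above the 3' UTR share in each score band, at 14.2% against 9.87% for scores of 50 to 99, 30.4% against 20.6% for 100 to 199, and 50.6% against 45.6% for 200 to 499. The intervals of CDS and 3' UTR do not overlap for all strong peaks together, and they do overlap within each of these bands. The difference was not tested further. The gap to intergenic sequence depended on the matching rule. An excitatory peak of the same small RNA lay within 50 bases of 23.7% of strong CDS peaks and 22.1% of strong intergenic peaks. For 3' UTRs this was 17.0% and for introns 8.09%. Strong intergenic peaks had a median width of 10 bases, against 13 in CDS. Of 73 strong peaks on long intergenic non-coding RNAs, 2 had a match (2.74%, 0.755 to 9.45). On rRNA 86 of 1204 strong peaks (7.14%) had a match and 217 had an excitatory peak of the same small RNA within 50 bases, at a median peak width of 5 bases.

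**Figure D3:**
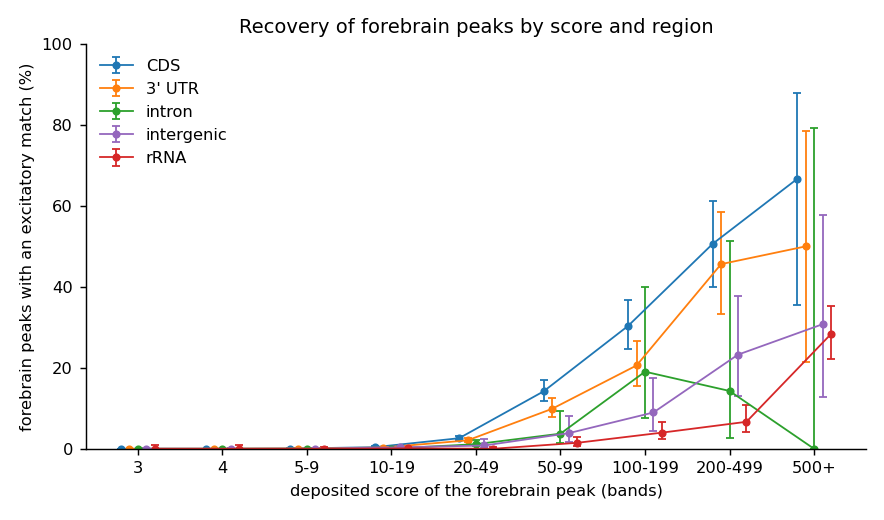
Share of forebrain peaks with an excitatory match (vertical axis, %) by band of forebrain score (horizontal axis) for CDS, 3' UTR, intron, intergenic and rRNA peaks; bars are 95% Wilson intervals. All lines stay near 0 below a score of 20; at 200 to 499 CDS reaches 50.6%, 3' UTR 45.6% and rRNA 6.67%.

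Small RNAs differed in how many of their strong forebrain peaks outside rRNA were found again. miR-124-3p had the most such peaks, 931, and 186 had a match (17.5 to 22.7%). miR-128-3p had 25 of 96 (26.0%, 18.3 to 35.6), miR-29a-3p 27 of 112 (24.1%, 17.1 to 32.8) and miR-29b-3p 23 of 100 (23.0%, 15.8 to 32.2). miR-127-3p and miR-138-5p each had 9 of 34 (26.5%, 14.6 to 43.1). Lower shares were seen for miR-9-5p, with 33 of 311 (10.6%, 7.66 to 14.5), miR-26a-5p, with 21 of 197 (10.7%, 7.08 to 15.7), and miR-125b-5p, with 3 of 66 (4.55%, 1.56 to 12.5). The intervals of miR-9-5p, miR-26a-5p and miR-125b-5p lie below the 16.1% of all small RNAs, and those of miR-124-3p, miR-128-3p and miR-29a-3p lie above it. miR-124-3p alone held 931 of the 2502 peaks and 186 of the 404 matches behind this 16.1%. Its own share is higher, so the level of the other small RNAs is below 16.1%. Intervals here and below were not set against that lower level. At a score of 100 or more the share of all small RNAs was 27.9%, and miR-29a-3p, with 11 of 38 (28.9%), stood near it. miR-124-3p then had 36.0% and miR-128-3p 40.0%. The shares of miR-9-5p (18.2%), miR-26a-5p (19.4%) and miR-125b-5p (5.26%) stayed lower.

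Several microRNAs had strong forebrain peaks and no match. miR-9-3p, which comes from the same hairpin as miR-9-5p, had 0 of 23, which allows a share of up to 13.0%, and no excitatory peak at all. miR-153-3p had 0 of 19 and also no excitatory peak. miR-137-3p and miR-218-5p each had 0 of 15, with 2 and 3 matched excitatory peaks at other sites. All 3 excitatory peaks of miR-137-3p lay on rRNA. The intervals of miR-153-3p, with an upper bound of 16.8%, and of miR-137-3p and miR-218-5p, with 20.4%, hold the 16.1% of all small RNAs. Of the miR-30 members, miR-30a-5p had 0 of 11, miR-30b-5p 1 of 9, miR-30c-5p 1 of 33, miR-30d-5p 0 of 13 and miR-30e-5p 0 of 17. The upper bounds of miR-30a-5p (25.9%), miR-30d-5p (22.8%) and miR-30e-5p (18.4%) also lie above the 16.1%, and that of miR-30c-5p (15.3%) lies below it. The miR-30b-5p match lay in the CDS of Unc13a, which encodes a priming factor of synaptic vesicles (3 against 80). In the list itself miR-30c-5p had 2 peaks, a match on the small cytoplasmic RNA Rny3 (5 against 426) and an unmatched peak on chromosome 16.

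**Figure D4:**
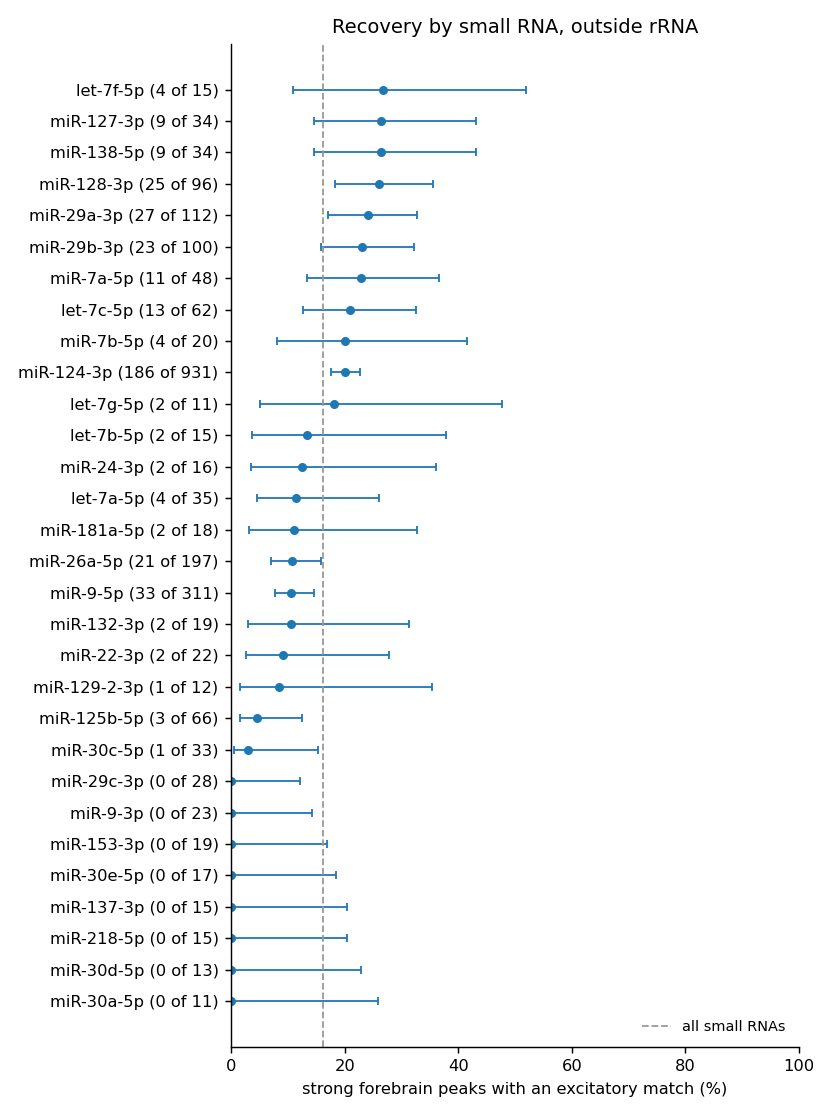
Share of strong forebrain peaks outside rRNA (score of 50 or more) with an excitatory match of the same small RNA (horizontal axis, %), for each small RNA with at least 10 such peaks, counts in brackets; bars are 95% Wilson intervals and the dashed line is the 16.1% of all small RNAs. miR-128-3p, miR-29a-3p and miR-124-3p lie to the right of the line with their intervals, and miR-9-5p, miR-26a-5p, miR-125b-5p, miR-30c-5p, miR-29c-3p and miR-9-3p to the left. miR-124-3p holds 931 of the 2502 peaks behind the line.

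Matching by seed changed the picture for families. miR-29c-3p had 0 of 28 strong forebrain peaks matched by its own name, which allows up to 10.7%, yet 11 of the 28 overlapped an excitatory peak of miR-29a-3p or miR-29b-3p, whose seed it shares. Its single excitatory peak, in the CDS of Rbfox3 (the neuronal splicing factor NeuN), scored 4 against 8. For let-7a-5p, 4 of 35 were matched by name and 11 by seed, and for let-7b-5p 2 of 15 and 8. miR-7b-5p went from 4 of 20 to 10. miR-9-5p and miR-128-3p are the only members of their seeds here, so their counts by name and by seed cannot differ. Overlap with an excitatory peak of any small RNA was found for 15 of the 28 of miR-29c-3p and 16 of the 35 of let-7a-5p. For let-7b-5p and miR-7b-5p the counts stayed at 8 and 10, and miR-9-5p rose from 33 to 46 of 311.

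let-7 members met at the same target sites. Merging overlapping excitatory peaks outside rRNA gave 619 sites, of which 9 held 3 or more small RNAs. At 5 of these 9 all small RNAs were let-7 members of the seed GAGGUAG, and all their peaks had forebrain matches. They lay in the CDS of Ttyh1, a chloride channel family member of brain (chr7:4122533-4122552, plus; 5 let-7 members with excitatory scores of 3 to 9 and forebrain scores of 125 to 1100), and in the CDS of Agap2, a GTPase-activating protein of synapses (chr10:127079647-127079673, plus; 4 members, 3 to 8 against 125 to 328). The third was in the CDS of Cx3cl1, the neuronal chemokine fractalkine (chr8:94778063-94778083, plus; 3 members, 3 to 8 against 25 to 142). The others were in the 3' UTRs of Ddn, a postsynaptic protein also called dendrin (chr15:98803876-98803898, minus; 5 members, 3 to 4 against 8 to 44), and of Arc (chr15:74669131-74669152, minus; 3 members, 3 to 8 against 13 to 61). The remaining 4 sites held small RNAs of several seeds, were intergenic or intronic, and include both unmatched sites described below.

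miR-7 peaks gathered at the Cdr1 gene, a place known for a large number of miR-7 sites. miR-7a-5p had 13 excitatory peaks and miR-7b-5p 4. Among these 17, 12 lay within RefSeq's Cdr1 span (chrX:61183246-61185558, GRCm38.p6), all on the plus strand, with scores of 3 to 11, and 10 of these 12 had a match. The forebrain list had 58 strong miR-7 peaks there, with scores of 51 to 575 and a median width of 2 bases; 11 had an excitatory match and 31 an excitatory peak of the same miR-7 within 50 bases. Away from Cdr1 it had 10 strong miR-7 peaks, of which 4 had a match, among them a miR-7a-5p site in the 3' UTR of Ids, a lysosomal sulfatase (5 against 325). The authors' annotation calls the Cdr1 peaks intergenic.

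The strongest excitatory peak outside rRNA was a microRNA on its own hairpin. miR-668-3p scored 106 at Mir668 (chr12:109734736-109734752, plus), against 269 in the forebrain list, where it ranked 443. At 39.4%, this ratio of scores was the highest among matches whose forebrain score was 100 or more; the next, miR-9-5p in the 3' UTR of Tmem109, was 10 against 100. All 17 bases of the peak lay in the opposite arm of the hairpin, miR-668-5p, shown here with the peak in capitals and followed by the arm whose name the peak carries.
miR-668-5p: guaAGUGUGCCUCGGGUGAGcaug
miR-668-3p: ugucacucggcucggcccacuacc

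The labelled cell type was checked against marker genes. Of 12 fixed genes of excitatory neurons only Camk2a had excitatory peaks, 14 in number and all matched. Slc17a7, Neurod6 and the others had none, although 10 of the 12 genes had forebrain peaks. Strong forebrain peaks on these genes were nearly all on Camk2a as well (37 of 38), so the list stands for a single gene here: 11 of 38 had a match (28.9%, 17.0 to 44.8), against the 18.2% of all strong CDS and UTR peaks. Genes of inhibitory neurons (0 of 2 strong peaks, both on Gad1), of striatal neurons and of vascular cells had no excitatory peak. The striatal, microglia and vascular lists had no strong forebrain CDS or UTR peak, so nothing can be said of their recovery.

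Astrocyte genes had few of their strong forebrain peaks found again. Among genes of astrocytes, 3 of 47 strong forebrain peaks had a match (6.38%, 2.19 to 17.2), an interval that lies below the 18.2% of all strong CDS and UTR peaks. All 3 were among the 14 strong peaks of Sparcl1, a secreted matrix protein, and without Sparcl1 the count was 0 of 33, which allows up to 9.09%. The astrocyte glutamate transporter Slc1a2 had 0 of 20. Without Slc1a2 the astrocyte count was 3 of 27 (11.1%, 3.85 to 28.1), an interval that holds the 18.2%. In the Sparcl1 CDS, miR-9-5p scored 4 against 1307 (chr5:104087061-104087091, minus) and let-7b-5p 3 against 91, and in the 3' UTR miR-124-3p scored 3 against 40. Of the oligodendrocyte genes, 3 of 24 strong peaks had a match (12.5%, 4.34 to 31.0), an interval that holds the 18.2%. Mbp had 0 of 6 and Qk 0 of 7. The part of RNA from other cells in the excitatory list was not tested, and fewer cells of a type and less RNA per cell cannot be told apart in such lists.

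**Figure D5:**
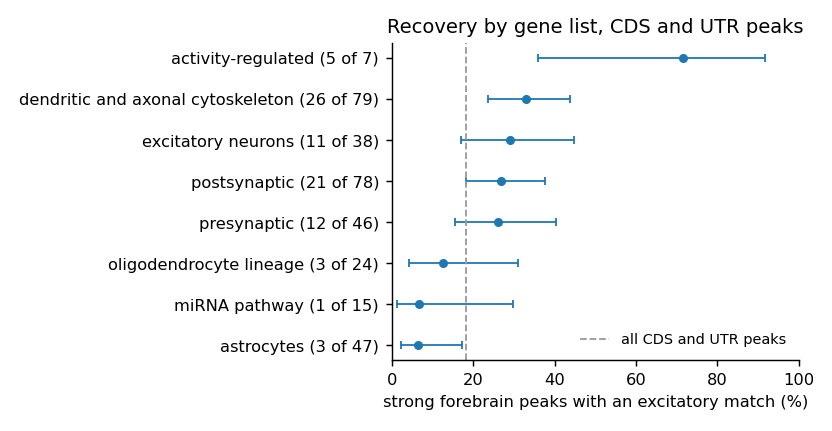
Share of strong forebrain CDS and UTR peaks with an excitatory match (horizontal axis, %) for the gene lists with at least 7 such peaks, counts in brackets; bars are 95% Wilson intervals and the dashed line is the 18.2% of all strong CDS and UTR peaks. The intervals of the activity-regulated (5 of 7), cytoskeleton (26 of 79) and postsynaptic (21 of 78) lists lie to the right of the line and that of the astrocyte list (3 of 47) to the left.

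Of the 766 excitatory peaks, genes of the cytoskeleton list held 36, postsynaptic genes 35 and presynaptic genes 14. The shares that follow stand beside the 18.2% of all strong CDS and UTR peaks. Of 79 strong forebrain peaks on genes of the dendritic and axonal cytoskeleton, 26 had a match (32.9%, 23.6 to 43.9), with 10 of 15 on Map2, the dendritic microtubule protein; without Map2 it was 16 of 64, with an interval that holds the 18.2%. Sptbn1, a beta spectrin, had 5 of 20, and Map1a, another microtubule protein, 0 of 9. Postsynaptic genes had 21 of 78 (26.9%, 18.3 to 37.7) with Camk2a and 10 of 41 (24.4%, 13.8 to 39.3) without it; the second interval holds the 18.2%. Presynaptic genes had 12 of 46 (26.1%, 15.6 to 40.3), again an interval that holds it, with 3 of 5 on the vesicle protein Syp, 2 of 9 on the active zone protein Bsn and 1 of 8 on the calcium sensor Syt1.

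Map2 had 11 excitatory peaks, 10 in the CDS and 1 in the 3' UTR, of 7 small RNAs if both unmatched peaks are counted. Its matched peaks scored 3 to 9, against forebrain scores of 54 to 277. miR-9-5p had 4 of them in the CDS (5 against 134, 4 against 191, 3 against 54 and 3 against 205). miR-124-3p scored 9 against 277 and 7 against 218, miR-138-5p 9 against 160 and miR-26a-5p, in the 3' UTR, 6 against 227. The peaks without a match were those of miR-24-3p (6) and miR-29a-3p (3), each lying next to a forebrain peak of the same microRNA, 4 bases and 0 bases away.

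Camk2a had 14 peaks with scores from 3 to 55. They belonged to miR-124-3p, miR-127-3p, miR-128-3p, miR-138-5p, miR-26a-5p and miR-29a-3p, and their forebrain scores ran from 10 to 830. The lowest match was that of miR-29a-3p in the CDS (3 against 10), and 11 of the 37 strong forebrain peaks on the gene were found again. Among other postsynaptic genes, the AMPA receptor subunit gene Gria3 had a miR-124-3p peak in its 3' UTR that scored 14 against 584 and, beside it, a miR-29a-3p peak of 5 against 164. The glutamate receptor Grm5 had miR-124-3p at 4 against 93 and miR-22-3p at 3 against 84.

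Activity-regulated genes had 7 strong forebrain peaks, of which 5 had a match (71.4%, 35.9 to 91.8), against the 18.2% of all strong CDS and UTR peaks. The 7 lay on 4 of the 19 genes of the list. Of these 7, 5 scored 100 or more, and 3 of those 5 had a match. At such scores 36.6% of all CDS peaks and 26.8% of all 3' UTR peaks had one, so the 18.2% is not a like level. Nr4a1, a nuclear receptor of the immediate early genes, had a miR-124-3p peak in its 3' UTR that scored 12 against 375. In the CDS of Egr1, an immediate early transcription factor, miR-124-3p had 3 peaks that scored 13 against 139, 5 against 54 and 3 against 26. Arc, whose protein acts at synapses, had its let-7 site and a miR-124-3p peak of 4 against 108. Homer1 had 0 of 1. Genes of the microRNA pathway had 1 of 15 strong peaks matched (6.67%, 1.19 to 29.8), an interval that holds the 18.2%, with 0 of 7 on Tnrc6a and 1 of 4 on Tnrc6b. That 1 was a miR-124-3p site in the Tnrc6b 3' UTR at 8 against 262.

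Of the 461 genes with an excitatory peak, 359 had 1 peak. Leaving out genes counted as rRNA, such as Gm42418 and mt-Rnr1, 17 had 4 or more. Beside those already named, the latter included the calcium pump Atp2b2 (5 peaks, 4 matched), Camk2n1, Ids, the translation factor Eef2 and the mitochondrial ADP/ATP carrier Slc25a4 (4 each, all matched). On Eef2 miR-29a-3p and miR-29b-3p scored 7 against 185 and 5 against 163 at overlapping sites in the CDS. They met in the CDS of Slc25a4 as well, at 3 against 66 and 5 against 69. On the small cytoplasmic RNA Rny3, 4 microRNAs of different seeds lay close together, with scores of 4 to 7 against 31 to 426.

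Some of the strongest forebrain sites had weak counterparts or none in the excitatory list. At an intergenic site on chromosome 3 (chr3:5860594-5860658, plus) miR-26a-5p scored 10 against 5596, the lowest of all ratios outside rRNA, and miR-124-3p scored 10 against 3325. A small nucleolar RNA, Gm24134, had miR-124-3p at 3 against 788, and Ids had miR-124-3p at 13 against 2837. Of the 15 highest forebrain peaks outside rRNA with no match, 9 had an excitatory peak of the same small RNA within 50 bases: both Pcdh1 peaks, the 6 on chromosome 3 and the Ids peak. The other 6 had none. They were miR-124-3p on the nuclear RNA Malat1 (1106), miR-9-5p in the CDS of the microtubule plus-end protein Clasp2 (983), miR-26a-5p in the 3' UTR of the RNA-binding protein Larp1 (862), 2 peaks of miR-30c-5p on the mitochondrial histidine transfer RNA mt-Th (763 and 704) and miR-690 in an intron of Gm44511 (689).

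At the other end, 4 excitatory peaks matched forebrain peaks of the lowest score, 3, at a tied rank of 196575.5 (79.9% of the list). They were miR-138-5p in the CDS of Atp6v0d1, a proton pump subunit (5 against 3), miR-127-3p in the CDS of Gprin1, a protein of growing neurites (3 against 3), miR-124-3p in the 5' UTR of the ubiquitin ligase Trim2 (3 against 3) and miR-27b-3p at an intergenic place of chromosome 12 that RefSeq assigns to Ubxn2a (3 against 3). The next lowest were miR-29b-3p in the 3' UTR of Cep68 and miR-128-3p in the CDS of Pld3, both 3 against 4. With both lists ending at 3, ratios of such weak pairs are set by that limit.

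The 53 excitatory peaks without a match fell into a few kinds. Of these, 12 lay on rRNA and 41 elsewhere. A forebrain peak of another small RNA overlapped 28 of them, in 7 cases a small RNA of the same seed, and 25 had a forebrain peak of the same small RNA within 50 bases, 23 of these within 10. Peaks of 5 bases or less made up 12 of the 53, against 13 of the 713 matched ones. CDS held 14 of the 53 (26.4%, 16.4 to 39.6) against 337 of 713 matched peaks (47.3%, 43.6 to 50.9), and 3' UTRs 5 (9.43%, 4.10 to 20.3) against 211 (29.6%, 26.4 to 33.0). Intergenic sequence held 14 and introns 8. miR-124-3p had 17 of the 53, miR-29a-3p and miR-127-3p 4 each and miR-128-3p 3.

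A pair of sites accounted for 15 of the unmatched peaks, and the forebrain list had no peak of any small RNA within 5000 bases of either. The first, on chromosome 16 (chr16:21392580-21392598, minus), is intergenic in the authors' annotation and lies within RefSeq's long non-coding RNAs Gm36150 and Gm36224. There 9 small RNAs of 9 seeds had peaks over the same 19 bases, with scores of 4 to 20 that summed to 58; miR-26a-5p was the highest at 20, followed by miR-139-5p at 7 and miR-16-5p at 6. The others were miR-128-3p, miR-124-3p, miR-127-3p, miR-138-5p, miR-27b-3p and miR-30c-5p. The second lay in an intron of Panx3 (chr9:37663674-37663692, minus), a gene of the pannexin channels, again 19 bases long. It held 6 small RNAs with scores that summed to 75, namely miR-124-3p (46), miR-29a-3p (11), miR-29b-3p (7), miR-127-3p (5), miR-26a-5p (3) and miR-132-3p (3).

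Forebrain replicates 5 to 7 also had peaks at both sites, whereas the IgG list had 0. On chromosome 16 they had 10 small RNAs with a summed score of 68, again led by miR-26a-5p, and 6 of them were among the 9 of the excitatory list. At Panx3 they had 3 small RNAs with a summed score of 18, led by miR-124-3p, and 1 was shared. The calling summaries name the libraries of replicates 5 to 7 and the excitatory libraries by the same 3 numbers with different end letters, and name those of the deep forebrain list otherwise. What these numbers stand for is not stated, and whether the libraries' origin has a part in these peaks was not tested. Without both sites 713 of 751 excitatory peaks had a match (94.9%).

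Outside these sites and rRNA 26 unmatched peaks were left, and 13 of them had a forebrain peak of the same small RNA within 50 bases. Examples are miR-9-5p in the CDS of Atp2b2 (7), miR-24-3p on Map2 (6), miR-29a-3p in the 3' UTR of the calmodulin gene Calm3 (5), and miR-124-3p in the CDS of Abr (4) and in the 3' UTR of Tnrc6b (4). let-7 peaks in the CDS of Lmo7, Slc35b4 and Xpo6, each at a score of 3, overlapped forebrain peaks of other let-7 members, and so did a miR-7a-5p peak at Cdr1 (11) with a forebrain peak of miR-7b-5p.

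Only 7 unmatched peaks outside both sites had no forebrain peak of any small RNA within 50 bases, and all were weak. The highest was miR-124-3p on chromosome 6 (chr6:77695423-77695441, plus), with a score of 6, at a place that RefSeq assigns to the catenin gene Ctnna2. The other 6 stood at 3: miR-221-3p in the CDS of the retinol dehydrogenase Rdh14, miR-128-3p in the CDS of Akap11 and of Trappc9, miR-124-3p in an intron of Vcp and at a place on chromosome 18 that RefSeq assigns to Mc5r, and miR-485-3p on chromosome 3 within RefSeq's Gm35639. Of the 461 genes with an excitatory peak, Panx3 and Rdh14 were the 2 with no peak of any kind in the forebrain list.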

How the data were processed

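Members, gene lists and comparisons were chosen with earlier results of these data known. The score of each peak is a whole number deposited by the authors; what it measures, the aligner and the peak caller were not given in the sources used here. Per the file headers, peaks were called per small RNA over pooled libraries on mm10 with at least 3 reads in at least 2 libraries. The labels give 61 to 138 M reads per sample in pairs of 150 bases. Overlaps were computed in Python (pandas 2.3.3, numpy 2.4.6), checked against bedtools 2.31.1 and on simulated peaks. Of several matches the highest-scoring was taken; tied scores took their mean rank. rRNA peaks are those annotated as such, or at Gm42418 and up to 5000 bases around it, same strand. Strong forebrain peaks score 50 or more. Named were the 10 highest excitatory peaks outside rRNA and 5 inside it, the 10 highest and lowest by matched forebrain score and by ratio (some of these summarised), the 15 highest unmatched peaks of either list, genes with at least 4 excitatory peaks, members of fixed lists, and small RNAs with at least 10 excitatory peaks or an unmatched one. A few further peaks were chosen after their values were seen, among them Tmem109, Rbfox3 and the Cdr1 peaks. A few items are not reported here.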

Additional observations from a re-analysis of the deposited data

Results flagged for a closer look

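The list of forebrain replicates 5 to 7, which takes no part in the matching, held a peak of the same small RNA over 17 of the 53 excitatory peaks that had no match in the deep forebrain list. For the 713 matched excitatory peaks the number was 408, and for all 766 it was 425 (55.5%). Of the 17, 7 were at the sites on chromosome 16 and in Panx3. The IgG list held such a peak for 0 of the 53, but it has only 10 peaks in all and so sets no useful level for comparison. This drew attention because a signal appeared in data outside the main comparison. Its cause was not tested.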

How the results depend on the processing

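Of 31 alternative settings 13 left the value within its interval and 18 moved it; none of these values has a test. The share of excitatory peaks with a match (93.08%) became 96.74% with any small RNA, 56.53% when at least 50% of both peaks had to overlap, 96.08% within 10 bases, 96.74% for CDS and UTR peaks alone and 94.94% without both unmatched sites, a setting chosen after seeing the data. The median rank (0.8796% of the list) became 1.002% among peaks of the same small RNA, 0.6468% outside rRNA, 1.174% among CDS and UTR peaks and 0.3073% for excitatory scores of at least 5. The share of the 1000 highest forebrain peaks with a match (22.6%) became 49.8% with any small RNA, 8.7% with 50% overlap, 25.6% for CDS and UTR peaks and 26.9% within 10 bases, also chosen after seeing the data. The CDS share of matched peaks (47.27%) became 52.99% without rRNA, 42.91% for excitatory scores of at least 5 and 51.73% with 50% overlap. The 3' UTR share (29.59%) became 33.18% without rRNA and 25.91% for scores of at least 5. No paired analysis was possible because each list was called over pooled libraries, and for the same reason no replicate could be left out. The excitatory scores sum to 0.352% of the forebrain scores, so a weak forebrain peak without an excitatory match may lie under the lowest score; the cause of missing matches was not tested.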
